A study of Mus musculus with 2 samples.

Results

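The complement cascade was followed through 35 genes in RNA-seq data from the livers of CD-1 mice, an outbred laboratory strain. They were chosen by name, from the recognition proteins that start the cascade to its receptors, and all 35 were found among the 37146 gene identifiers of the deposited tables. The NP library came from mice given TiO2 nanoparticles by mouth at 50 mg per kg body weight per day, in a suspension treated with ultrasound for 30 min. The Control library came from mice given the same volume of PBS. Each group had 1 library. The labels did not state the sex or age of the mice, the length of treatment, or how many animals entered a library. All statements therefore describe these 2 libraries, without a replicate check, a standard error or a p-value.

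Complement is a plasma defence system of proteases and pore-forming proteins, and most of its circulating components are secreted by hepatocytes. Recognition by C1q, by mannose-binding lectins, collectins and ficolins, or by spontaneous turnover of C3, leads to convertases that cleave C3 and then C5. Cleaved C5 starts the assembly of C6, C7, C8 and C9 into the membrane attack complex, while soluble and membrane-bound regulators protect host cells. Some components come mainly from other cells: C1q from macrophages and adipsin (Cfd) from adipocytes.

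Levels are FPKM, fragments scaled to transcript length and library size, so that they can be compared between genes. Each is given with a 95% interval from Cufflinks for the estimate within a library, which holds no spread between animals. Where a gene had more than 1 row above 0, the rows were summed. Their half-widths were then combined in quadrature, which leaves out covariance between rows. Ratios of NP to Control were taken on the scale of log2(FPKM + 1), which understates differences of low genes, and a difference of at least 1.5-fold on that scale was counted. Genes whose mean reached 1 FPKM were kept for counting, and these were 30 of the 35 complement genes and 10534 genes in all. The 5 below it were C2, Cfd, C7, C3ar1 and C5ar1.

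The tissue label was checked first. All 6 hepatocyte markers were abundant, with Alb at 21660 FPKM in Control and 30741 in NP. All 6 were higher in NP, summing to 36211 and 48146 FPKM. Markers of Kupffer cells and macrophages, of stellate cells and of sinusoidal endothelial cells were lower in NP, and their values are given below. Coverage by reads, divided by FPKM, had a median of 2.29 for Control against 2.93 for NP. If coverage is not scaled to library size, NP was covered 1.28 times as deeply. Upper half-widths of the intervals had medians of 5.40% (Control) and 5.14% (NP) of the value for complement genes at a mean of at least 50 FPKM. They were 21.9% and 22.8% for those at 1 to 15 FPKM.

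Of the 30 kept complement genes, C4b was the single gene at least 1.5-fold higher in NP and C6 the single gene at least 1.5-fold lower, and 28 lay between. Among all kept genes 3.60% were that much higher and 5.33% that much lower, so both counts are near the background. A limit of 2-fold left 0 in either direction, against 1.14% of all kept genes higher and 1.88% lower. A limit of 0.32 on the log2 scale gave 3 higher and 5 lower, against 10.2% and 14.0%. With 0.1 FPKM added in place of 1, Fcna joined C6 as lower, against 7.58% of all kept genes. The median log2 ratio was 0.03 over the 30 genes and -0.03 over all kept genes. Of the 30 ratios, 14 were below 0, against 54.4% of all kept genes. Intervals were separate for 11 complement genes, against 17.3% of all kept genes. NP was above Control in 6 of these (C3, C4b, Cfb, Hc, Cfi and Vtn), against 7.73% of all kept genes, and below Control in 5 (C6, C8b, C4bp, Fcna and Colec10), against 9.58%. Intervals of abundant genes are narrow and separate at small ratios. Among kept genes at a mean of at least 50 FPKM, 19.2% had the NP interval wholly above and 14.9% wholly below, and of the 18 complement genes at that level 6 and 3 did. Together the 35 genes summed to 6102 FPKM in Control and 6697 in NP, or 0.962% and 1.06% of all FPKM.

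**Figure D1:**
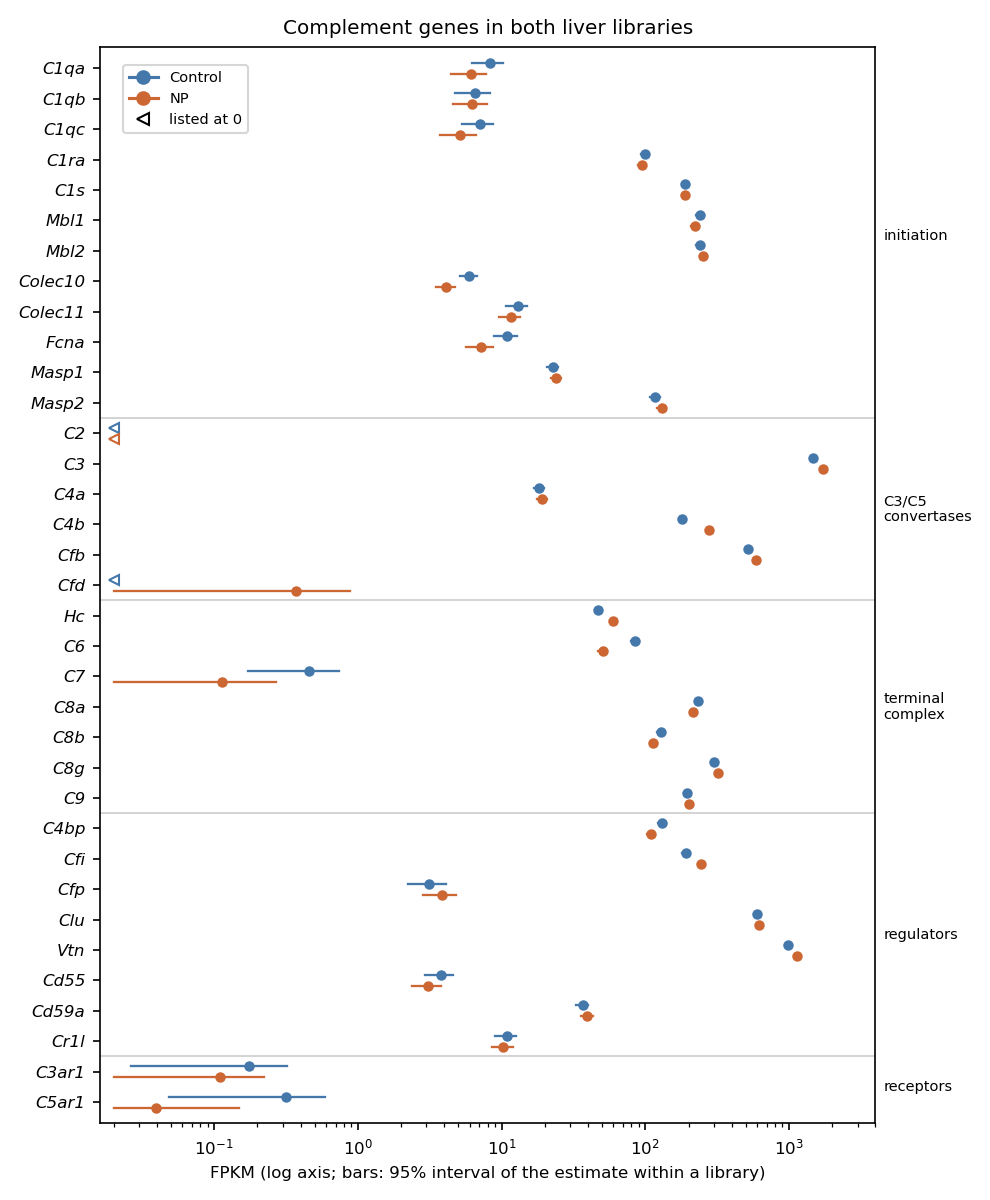
FPKM of each of the 35 complement genes on a log axis, ordered by role, with Control in blue and NP in orange; bars are the 95% interval within a library and open triangles mark genes listed at 0. Levels run from 0 for C2 to 1475 and 1735 FPKM for C3, and for 19 of the 30 kept genes the 2 intervals overlap.

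**Figure D2:**
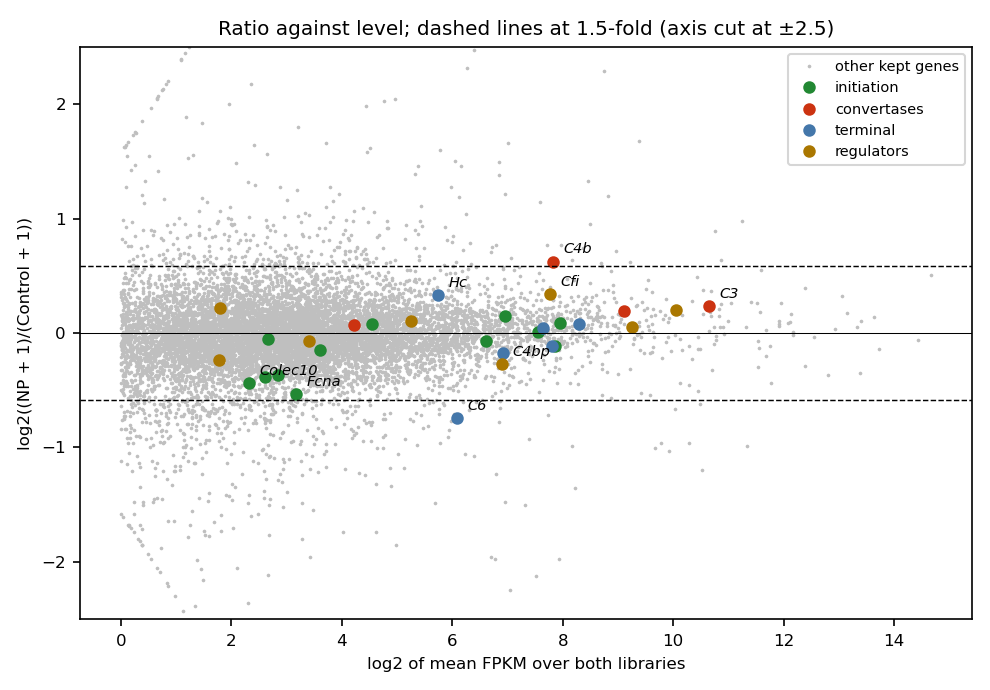
Log2 ratio of NP to Control against the log2 of the mean FPKM, with 1 point per kept gene; complement genes are coloured by role, other genes are grey and dashed lines mark 1.5-fold. C4b lies above the upper line and C6 below the lower one, and the other 28 coloured points lie between the lines; grey points beyond the axis limits are not drawn.

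C3, C4 and factor B build the convertases, and their genes had the highest median ratio of any role. All 4 kept convertase genes had a ratio above 0, with a median log2 ratio of 0.21, and 3 had the NP interval above that of Control. These 3 are at a mean of at least 50 FPKM, where 19.2% of all kept genes had the NP interval above and 44.6% had a ratio below 0. The hepatocyte markers had a median log2 ratio of 0.31, with the NP interval above that of Control for 5 of 6, and their part in the result was not tested. C3, the protein on which all routes converge, was the most abundant complement gene. Control had 1475 FPKM (1413 to 1537) and NP had 1735 (1663 to 1807), 1.18 times as much. It ranked 59 among kept genes in Control and 50 in NP. Cfb, which encodes the protease of the alternative convertase, had 518 FPKM (499 to 537) in the Control library against 592 (571 to 614), a ratio of 1.14. C4b, which encodes the C4 protein of the classical and lectin convertase, had 179 FPKM (170 to 187) without nanoparticles against 276 (264 to 288) with them. The ratio was 1.55, or 0.62 on the log2(FPKM + 1) scale. C4b spans chromosome 17 from 34865325 to 34880827 on the mm9 build of the files, and all of its FPKM lay in 1 transcript of 5379 nt.

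C4a, the neighbouring copy also known as Slp, was at 18.2 (16.9 to 19.6) and 19.2 (17.7 to 20.6) FPKM, with overlapping intervals. C4b was thus 9.80 times C4a in Control and 14.4 times in NP. Because reads of such copies can be exchanged, both transcripts were compared in the GENCODE M21 reference, matched by identifier. Over 5202 aligned bases of the 5214-nt coding sequence of C4b, C4a was identical at 96.2%, and 35.5% of all 50-base windows of C4b occurred unchanged in C4a. The stretch of 90 bases with the most differences shows how a read can tell the copies apart. It covers bases 2675 to 2764 of the C4b coding sequence, counted from the first base of the start codon, with the 14 differing bases in capitals.
C4b: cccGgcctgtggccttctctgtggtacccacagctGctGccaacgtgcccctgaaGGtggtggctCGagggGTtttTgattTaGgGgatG
C4a: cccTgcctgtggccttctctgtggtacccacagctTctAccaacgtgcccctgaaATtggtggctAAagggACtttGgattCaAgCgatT
Both copies were also summed. Control reached 197 FPKM (189 to 205) and NP reached 295 (283 to 308), with separate intervals and a ratio of 1.499, just short of the 1.5-fold limit. That sum holds the gene-span row of C4a. Over transcript rows alone, a version added after seeing the data, the sums were 195 and 294 FPKM and the ratio was 1.507, just past the limit. The rows of C4a itself differed: its 5359-nt transcript was at 16.3 and 11.6 FPKM, while a 5165-nt transcript had 0 in the Control table and 6.13 FPKM in that of NP.

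The other convertase genes were C2 and Cfd. C2, which encodes the protease that pairs with C4, was listed at 0 in both libraries in all 9 of its rows, and no ratio is given. It lies beside Cfb on chromosome 17, from 34999549 to 35035397. Gm20547, whose rows run across both Cfb and C2, and Zbtb12, which overlaps C2, were also listed at 0 in all 3 rows each. An exact 0 in such a table can be a failed estimate, so no absence of C2 RNA is read from it. Cfd, which encodes adipsin, the protease that activates factor B, had 0 in the Control table and 0.370 FPKM in that of NP, with an interval from 0 to 0.878. Of 5 adipocyte markers, Lep and Retn were at 0 in both libraries and Plin1 at 0 in Control, and the list summed to 9.14 and 13.0 FPKM, nearly all of it from Fabp4.

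Genes of the terminal complex differed in both directions. Hc, which encodes C5, had 47.1 FPKM (44.4 to 49.8) in the Control library against 59.5 (56.4 to 62.7), a ratio of 1.26. C3 was 31.3 times Hc in Control and 29.1 times in NP, so both kept nearly the same proportion. C6, the first component to join cleaved C5, had 85.2 FPKM (80.2 to 90.3) in the Control library against 50.4 (47.0 to 53.8) with nanoparticles. It was 1.69-fold lower in NP with separate intervals, a log2 ratio of -0.75. C6 spans chromosome 15 from 4677175 to 4765456. C9, which forms the ring of the pore, lies on the same chromosome from 6395327 to 6448744 and was at 196 (186 to 206) and 202 (192 to 212) FPKM, with overlapping intervals. C9 was therefore 2.30 times C6 in Control and 4.01 times in NP. C7, between them on the chromosome, was near the floor at 0.458 (0.173 to 0.744) and 0.113 (0.00502 to 0.267) FPKM, and its intervals overlapped.

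The lower level of C6 was seen in every row of the gene that was above 0. Its 2876-nt transcript had 66.6 FPKM (62.2 to 71.0) against 41.7 (38.7 to 44.8) with nanoparticles. Its 2447-nt transcript was at 17.4 (14.9 to 19.8) and 8.31 (6.74 to 9.87) FPKM. The tables also hold a row for the whole genomic span of a gene, which can take intronic reads, and for C6 it was at 1.20 (1.11 to 1.29) and 0.355 (0.314 to 0.397) FPKM, 3.38-fold lower in NP. Across the kept genes, 3236 span rows were at 0.1 FPKM or more in both libraries, and 13.3% of these were at least 1.5-fold and 3.71% at least 2-fold lower in NP by plain FPKM, while 7.32% were at least 1.5-fold higher. Of the 9 complement genes with such a row, C6 was the only one past 1.5-fold in either direction. The span row of C4bp was higher in NP, at 2.08 and 2.96 FPKM, and that of C4a lower, at 1.94 and 1.38 FPKM, while Hc (0.801 and 0.855 FPKM) and C8a (2.23 and 1.98 FPKM) had overlapping intervals there.

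**Figure D3:**
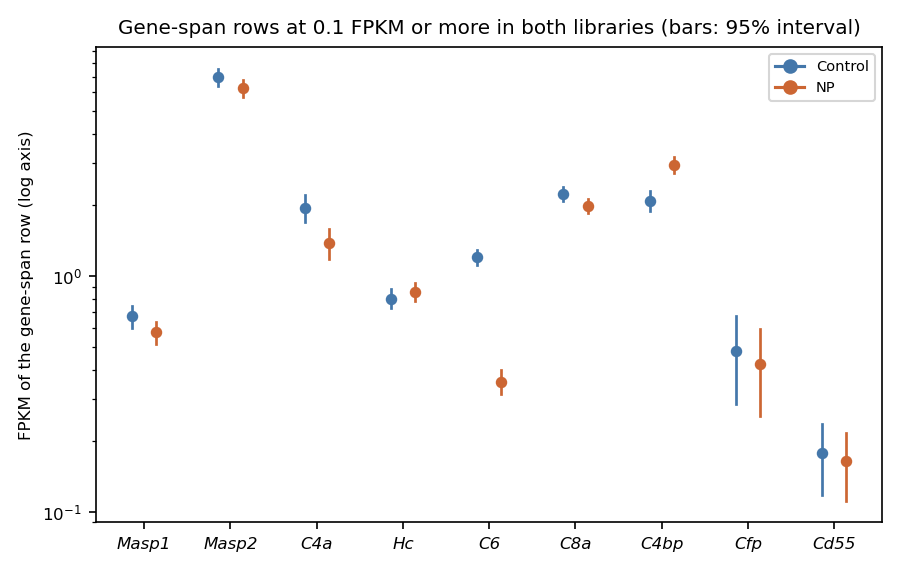
FPKM of the gene-span row on a log axis for the 9 complement genes with at least 0.1 FPKM in both libraries; Control is blue, NP is orange and bars are the 95% interval. The gap is widest for C6, from 1.20 to 0.355 FPKM, while C4bp differs the other way, with 2.08 and 2.96 FPKM.

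The promoters of C6 and C9, terminal genes of the same chromosome with unlike ratios, and of C3, the most abundant gene, are shown to set their sequences side by side. Each is the 250 bases before the start of the gene, 5′ to 3′, from RefSeq on GRCm38.p6, a later build than that of the files. C3 is chr17:57228137-57228386 on the minus strand, C6 is chr15:4726960-4727209 on the plus strand and C9 is chr15:6445096-6445345 on the plus strand. Capitals mark matches to any of 6 motifs searched on both strands, and adjoining or overlapping matches run together.
C3: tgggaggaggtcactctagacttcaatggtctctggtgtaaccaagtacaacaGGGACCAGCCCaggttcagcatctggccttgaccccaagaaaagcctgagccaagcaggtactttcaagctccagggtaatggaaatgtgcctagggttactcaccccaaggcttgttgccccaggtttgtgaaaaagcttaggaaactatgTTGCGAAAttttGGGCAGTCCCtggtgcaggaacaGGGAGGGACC
C6: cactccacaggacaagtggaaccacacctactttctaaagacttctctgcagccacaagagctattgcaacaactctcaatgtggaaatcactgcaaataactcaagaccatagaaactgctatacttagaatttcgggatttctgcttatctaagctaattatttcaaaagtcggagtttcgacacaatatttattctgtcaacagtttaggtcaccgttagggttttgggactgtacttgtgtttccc
C9: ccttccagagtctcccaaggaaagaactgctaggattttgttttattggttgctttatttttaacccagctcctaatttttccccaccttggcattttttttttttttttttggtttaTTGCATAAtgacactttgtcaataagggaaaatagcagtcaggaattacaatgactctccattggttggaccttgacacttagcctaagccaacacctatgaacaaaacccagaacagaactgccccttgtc
C3 held a C/EBP core, TTGCNNAA, from 45 to 38 bases before its start, and C9 held one from 132 to 125 bases before its start. This core was found in 3 of 28 windows of the complement genes and in 9.56% of all 32851 windows. The NF-kB pattern, GGG and CC with 5 free bases between them, was matched by C3 and in all by 10 of the 28 windows, a loose pattern that 45.8% of all windows hold. The TATA box TATAAA (4 of 28, against 12.4% of all windows), the STAT pattern TTCNNNGAA (4 of 28, against 7.02%), the HNF1 pattern of GTTAAT and TTAA with 2 free bases between them (Hc alone, against 0.131%) and the ER stress element of CCAAT and CCACG with 9 free bases between them (0 of 28, against 0.113%) were not matched in these 3 windows. C6 matched none of the 6. A match is a description of letters only. Windows were found for 26 of the 35 genes, with 28 windows in all; C1qa, Colec10, Masp1, C2, C4a, C4b, Cfb, Cfi and Clu had no entry.

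The C8 subunits were all abundant. C8a, at 234 (224 to 244) and 216 (206 to 225) FPKM, had overlapping intervals. C8b, whose product pairs with that of C8a and whose gene lies next to it on chromosome 4, was at 129 (121 to 136) and 114 (107 to 120) FPKM, 0.883 times as much, with separate intervals. C8g, which encodes the lipocalin-like gamma chain, was at 303 (287 to 320) and 321 (304 to 339) FPKM, with overlapping intervals. The 3 summed to 666 FPKM (645 to 687) and 651 (630 to 671), and the order C8g, C8a, C8b was the same in both libraries. The total of C8g hides a difference between its rows. The 1150-nt coding transcript had 208 FPKM (195 to 222) against 321 (304 to 339) with nanoparticles, while an 868-nt transcript, a processed transcript without a coding sequence in GENCODE M21, had 94.9 FPKM in the Control table and 0 in that of NP.

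In 24 of the 35 genes 1 transcript carried all of the transcript FPKM, and in 10 genes 2 or 3 transcripts did. Cfb was split between a 2737-nt transcript, at 311 (295 to 326) and 411 (392 to 430) FPKM, and a 2397-nt transcript, at 208 (196 to 219) and 181 (171 to 191) FPKM. The longer one made up 59.9% of the gene in Control and 69.4% in NP, with separate intervals for both rows. In Masp2 the 738-nt transcript carried 75.0% of the transcript FPKM in Control and 79.4% in NP. C8a kept its proportions, with 85.6% in the 3617-nt transcript in both libraries. Of 8 complement genes with more than 1 transcript row above 0 and a row at 20 FPKM or more, C4bp and C8g had such a row listed at 0 in the other library. Among all kept genes of that kind, 12.2% had one, so values of single transcripts are less firm than their intervals show.

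**Figure D4:**
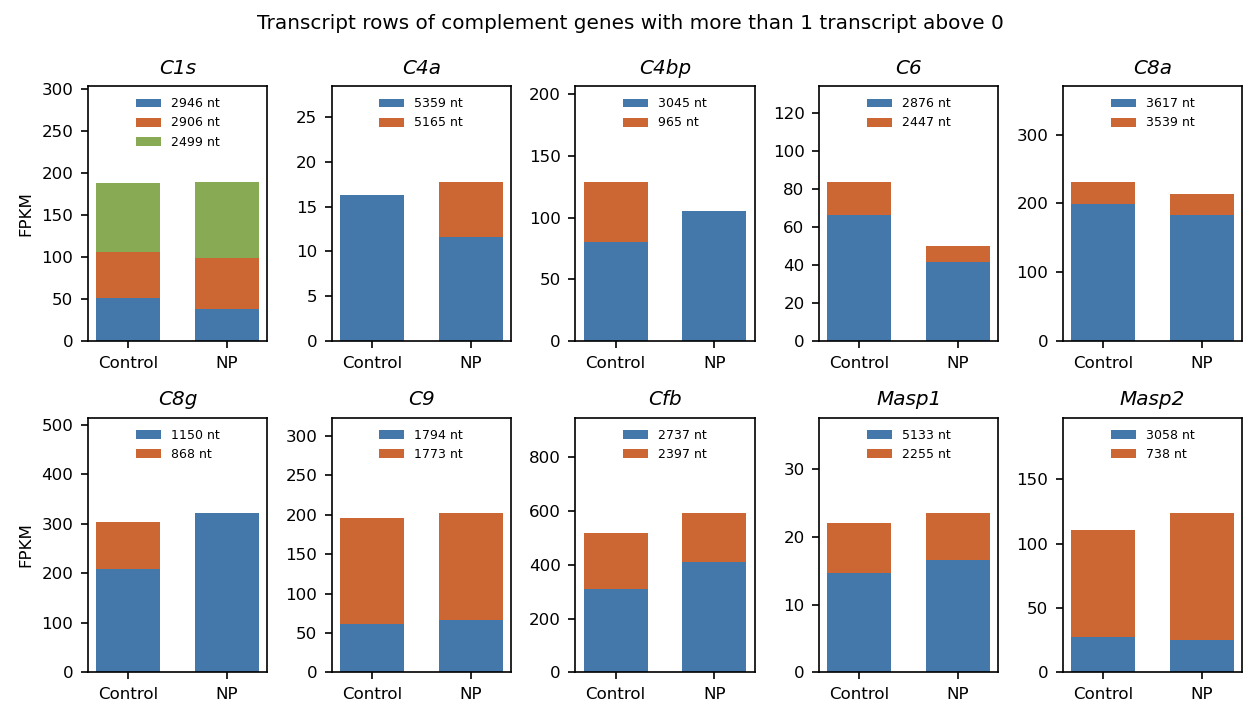
FPKM of each transcript row, stacked, for the 10 complement genes with more than 1 transcript above 0; each panel has its own axis from 0, with Control on the left, NP on the right and the transcript length in the key. The shorter rows of C4bp and C8g are present in Control and listed at 0 in NP, both rows of C6 are lower in NP, and C8a keeps its proportions.

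Among the 12 genes of initiation, 0 passed 1.5-fold and the median log2 ratio was -0.09. Summed over rows, the proteases and lectins secreted by hepatocytes were close in both libraries. C1ra and C1s, the proteases of the C1 complex, were at 99.5 (93.7 to 105) and 94.9 (89.5 to 100.3) FPKM and at 188 (180 to 196) and 190 (182 to 198) FPKM. The rows of C1ra and of C1s on chromosome 6 both overlap C1rb, a further C1r gene that was listed at 0 in both libraries. As for C2, no absence of C1rb RNA is read from that 0. Within C1s, the 2946-nt transcript was at 50.9 (46.8 to 55.1) and 37.8 (34.5 to 41.2) FPKM, lower in NP with separate intervals. The 2499-nt and 2906-nt transcripts were higher, at 81.8 and 91.3 FPKM and at 55.3 and 60.4 FPKM, with overlapping intervals. Mbl1 and Mbl2, the mannose-binding lectins, were at 242 (226 to 257) and 223 (209 to 237) FPKM and at 239 (225 to 254) and 254 (239 to 268) FPKM, again with overlapping intervals. Masp1 and Masp2, the proteases that travel with the lectins, had 22.7 and 24.1 FPKM for Masp1, and 117 and 130 FPKM for Masp2. Both pairs of intervals overlapped, and Masp2 overlaps another expressed gene, Tardbp, at 40.2 and 36.6 FPKM. Masp2 was 5.15 times Masp1 in Control and 5.39 times in NP. That multiple rests on a 738-nt transcript of Masp2, at 82.6 and 98.1 FPKM. The 3058-nt transcript of Masp2 was at 27.5 (25.0 to 30.0) and 25.5 (23.2 to 27.8) FPKM, near the level of Masp1.

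The recognition molecules of low level in whole liver were all lower in NP, some with separate intervals. Of all 7053 kept genes at a mean of 1 to 15 FPKM, 563 had the NP interval wholly below that of Control and 359 wholly above. Fcna, which encodes ficolin A, a lectin of macrophages, had 10.9 FPKM (8.89 to 12.9) against 7.21 (5.67 to 8.74) with nanoparticles. This is 1.51-fold lower by plain FPKM, a size that 7.42% of kept genes above 0 in both libraries reached, and -0.54 on the log2(FPKM + 1) scale, short of the limit used here. Colec10, a collectin, was at 5.92 (5.13 to 6.71) and 4.10 (3.49 to 4.71) FPKM, 1.44-fold lower with separate intervals. Colec11, its partner in a joint lectin complex, was at 12.9 (10.7 to 15.1) and 11.5 (9.59 to 13.5) FPKM, with overlapping intervals. C1qa, C1qb and C1qc, the chains of C1q, were at 8.24, 6.50 and 7.05 FPKM in Control and at 6.16, 6.24 and 5.17 in NP. Each pair of intervals overlapped, and the sum of the chains was 21.8 (18.6 to 25.0) and 17.6 (14.8 to 20.3) FPKM, also overlapping.

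Of the 9 complement genes at a mean of 1 to 15 FPKM, 8 were lower in NP and the median log2 ratio was -0.23. Among all kept genes at that level 56.5% were below 0 and the median was -0.04. Cfp was the exception. Masp1, C4a and Cd59a, at means between 15 and 50 FPKM, all had ratios above 0. Taken over all 12 complement genes kept under 50 FPKM, 8 ratios were below 0 and 4 above, with a median of -0.11. The 18 genes at a mean of at least 50 FPKM had 12 ratios above 0 and 6 below, with a median of 0.07. Of all kept genes at that level 44.6% were below 0, and their median was 0.03. The marker lists of non-parenchymal liver cells were lower in NP too, while the hepatocyte list was higher. All 8 Kupffer cell and macrophage markers were lower in NP, summing to 36.0 FPKM in Control and 18.9 in NP. All 7 stellate cell markers were lower, summing to 91.8 and 74.4 FPKM, of which Dcn alone gave 70.8 and 57.7. All 6 sinusoidal endothelial markers were lower, summing to 96.5 and 70.5 FPKM, of which Clec4g alone gave 44.6 and 30.6. Of these lists 5, 5 and 6 markers were kept in turn, and none was listed at 0. The NP interval was wholly below that of Control for 2, 3 and 3 of them, against 9.58% of all kept genes. Emr1, Marco, Timd4, Des and Col1a1 were under a mean of 1 FPKM, with overlapping intervals. Clec4f, a lectin of Kupffer cells, was at 18.4 (14.6 to 22.3) and 7.63 (5.28 to 9.99) FPKM. Fewer cells of a type and less RNA per cell cannot be told apart in bulk tissue, and the part of either in the lower recognition molecules was not tested.

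**Figure D5:**
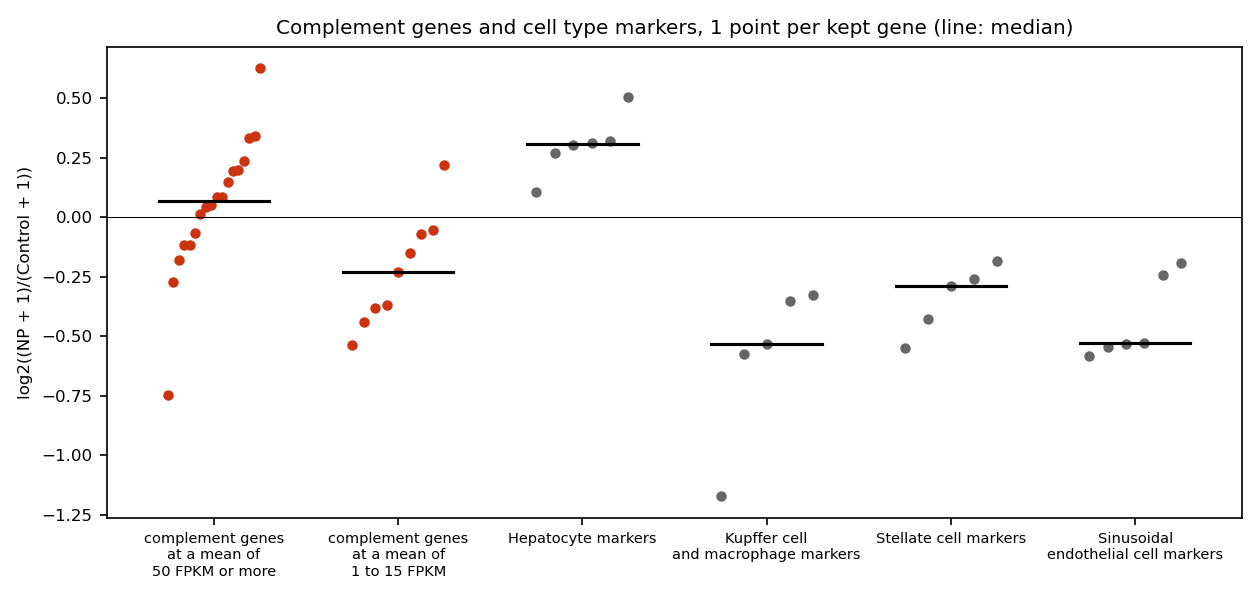
Log2 ratio of NP to Control, with 1 point per kept gene and a line at the median, for complement genes at 2 levels (red) and 4 lists of cell type markers (grey). The neutrophil and adipocyte lists, with 2 and 1 kept genes, are not drawn. Of their markers 4 and 3 were higher in NP and 0 lower. Hepatocyte markers lie above 0 and the Kupffer cell, stellate cell and endothelial markers below 0, and 8 of 9 complement genes of low level lie below 0.

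The regulators stayed within 1.5-fold, with 5 of 8 ratios above 0 and a median of 0.08. Cfi, which encodes factor I, the protease that degrades C3b and C4b, was at 192 (181 to 202) and 243 (231 to 255) FPKM, 1.27 times as much, with separate intervals. C4bp, a cofactor of factor I for C4b, had the lowest log2(FPKM + 1) ratio of the regulators, at 131 (123 to 140) and 109 (103 to 115) FPKM. That direction rests on how its rows are added. The full-length 3045-nt transcript was higher in NP, at 80.0 (75.1 to 84.9) and 106 (100.1 to 112) FPKM, and a 965-nt transcript had 49.3 FPKM (42.7 to 55.8) in the Control table and 0 in that of NP. With transcript rows weighted by length, a version chosen after seeing the data, the log2 ratio of C4bp was 0.14 and no longer -0.27.

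Vtn and Clu, whose products vitronectin and clusterin keep the terminal complex from inserting into membranes, ranked 84 and 128 among kept genes in Control. Vtn was at 983 (940 to 1027) and 1129 (1080 to 1179) FPKM, 1.15 times as much, with separate intervals. Clu was at 596 (569 to 624) and 618 (589 to 646) FPKM, with overlapping intervals. The membrane regulators were lower in level and close in both libraries. Cd59a, which blocks pore formation by C9, was at 36.6 and 39.4 FPKM, Cr1l (Crry), a membrane cofactor of rodents, at 10.8 and 10.3 FPKM, and Cd55, which speeds the decay of convertases, at 3.77 and 3.06 FPKM. Cfp, which encodes properdin, the stabiliser of the alternative convertase, was at 3.14 (2.21 to 4.07) and 3.82 (2.84 to 4.79) FPKM. Intervals of these 4 genes overlapped. The receptors of the cleavage fragments were near the floor: C3ar1 was at 0.175 and 0.110 FPKM and C5ar1 at 0.317 and 0.0392 FPKM, with overlapping intervals. Neutrophil markers were low as well, with Mpo and Ngp at 0 in both libraries and the list of 6 at 4.76 and 5.87 FPKM in all.

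A further list of 27 complement genes gave the surroundings of these values, of which 24 were found by name and 12 kept. Of the 12, 11 lay within 1.5-fold. The one past the limit, a size and direction that 3.60% of all kept genes reached, was Cd59b, a close copy of Cd59a, at 0.412 FPKM (0.320 to 0.504) and 2.76 (0.698 to 4.82), a low value with a wide interval. It reached a mean of 1 FPKM only through NP, so its place among the kept genes rests on the higher library, and its reads can be exchanged with those of Cd59a. Serping1, the C1 inhibitor, was at 469 (446 to 491) and 466 (444 to 488) FPKM. Cpn1 and Cpn2, the subunits of the carboxypeptidase that inactivates the anaphylatoxins, were at 181 (170 to 191) and 208 (197 to 219) FPKM and at 57.8 (54.5 to 61.2) and 63.8 (60.3 to 67.3) FPKM, with separate intervals for Cpn1.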

How the data were processed

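Liver RNA of 1 Control and 1 NP library was sequenced after preparation with an Illumina TruSeq kit, per the labels' protocols. Per the submitters' processing notes, the tools were TopHat2 2.1.0 and Cufflinks 2.2.1.0 and the build was mm9, with no role or setting stated. The deposited tables have 119289 rows and, per the file headers, hold FPKM, the limits of its interval and read coverage. The interval was taken as the 95% interval of Cufflinks, and coverage as a signal not scaled to library size. The number of fragments is unknown here.

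A gene's FPKM was the sum over rows sharing its identifier, with half-widths combined in quadrature, which leaves out covariance between rows and treats a 0 as exact. Kept genes had a mean of at least 1 FPKM, an OK status in all rows, 1 row or more reaching 300 nt, and names other than those of small RNAs. Starts were converted to count from 1. The complement genes, the lists and the rules were chosen with earlier results of these data known. All 35 genes are accounted for; of the further complement genes, those past 1.5-fold, Serping1, Cpn1 and Cpn2 are named, and 1 further gene of the rule is not reported here. Differences were counted at 1.5-fold, with no test possible. The gene sum and the size rule were tested on simulated data with differences far larger than the limit, so ratios near 1.5-fold were not probed. Alternatives covered the pseudocount, filter, library scaling, rows used, size rule and C4 copies; weighting by length, the plain FPKM ratio and the C4 sum over transcript rows were added after seeing the data. Python 3.11.15, pandas 2.3.3, numpy 2.4.6, Biopython 1.88 and matplotlib 3.10.9 were used.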

Additional observations from a re-analysis of the deposited data

How the results depend on the processing

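The 2 libraries allow no estimate of spread between animals, and the number of fragments behind a value is unknown. The wide intervals of genes at 1 to 15 FPKM overlapped for all but Fcna and Colec10 of the 9 complement genes there. Among all 7053 kept genes at that level, the NP interval was wholly below for 563 and wholly above for 359. No paired analysis was possible because each group has 1 library. The count of 1 gene at least 1.5-fold higher, C4b, was 2 when the highest transcript row stood for a gene, with C8g added, 0 when C4a and C4b were summed over all rows, and 1 when they were summed over transcript rows only, an alternative added after seeing the data. The count of 1 lower gene, C6, was 2 with a pseudocount of 0.1 FPKM and 2 with the plain FPKM ratio, with Fcna added both times. The matching shares were 7.58% of all kept genes and 7.42% of those above 0 in both libraries. With a size rule of 2-fold both counts were 0, against 1.14% of all kept genes higher and 1.88% lower. A size rule of 0.32 on the log2 scale gave 3 higher (C4b, Cfi and Hc), against 10.2% of all kept genes. It gave 5 lower (C1qa, C1qc, C6, Colec10 and Fcna), against 14.0%. The median log2 ratio lay between 0 and 0.05 in all alternatives run for it. The number of genes with separate intervals was 11, against 17.3% of all kept genes. It was 9 after scaling NP to a median log2 ratio of 0 or to the upper quartile, and 13 with the highest transcript row. The share of all kept genes after scaling or with the highest transcript row is not given. Counts under those alternatives therefore cannot be set against a background. Of 210 ratios of single genes under 7 alternatives, 204 stayed within the range set by both intervals. Most could hardly leave it, because 24 of the 35 genes had 1 transcript above 0 and both scalings of NP were small. The 204 are thus no measure of firmness. The 6 that left it were C1s, C4a, Cfb, C8g and C4bp with the highest transcript row, and C4bp with rows weighted by length. A sign opposite to the reported one was found for 3 of the 210 ratios. These were C4a at -0.45 and C4bp at 0.40 with the highest transcript row, and C4bp at 0.14 with rows weighted by length.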
